A study of Rattus norvegicus with 8 samples.

Results

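The genes described here are the core regulators of the cell division cycle: the cyclins, the cyclin-dependent kinases (CDKs), the inhibitors of these kinases, the RB and E2F families and the enzymes and factors that act on them. A list of 50 gene symbols defined them, and 48 were found among the 23487 genes of the deposited table. E2f1 and Cdkn2d were not analysed here. RNA was sequenced from peritoneal macrophages of Wistar rats, 8 weeks old, sorted by flow cytometry 15 days after injection of carbon nanotubes into the peritoneal cavity, and the study's methods give the dose as 2 mg and the rats as female. The 4 CNT-7 rats (numbers 3, 5, 10 and 11) received needle-like multi-walled nanotubes (MWCNT-XNRI-7), which cause mesothelioma in this model, and the 4 CNT-T rats (numbers 1, 2, 12 and 13) received tangled multi-walled nanotubes, which do not. Every rat received particles, and untreated rats were not analysed here, so each difference is one between the particles. The study sorted CD11b/c-high His48-dim cells, and each library is a bulk sample of 1 rat. By flow cytometry at an earlier day, the study reported marked MHCII expression after CNT-7 and mostly CD163-positive, MHCII-negative macrophages after CNT-T. At that earlier day it also reported more BrdU uptake and more of the proliferation marker Ki-67 after CNT-T than after CNT-7. At day 15 it reported more Ki-67 transcript by qRT-PCR, and stronger expression of cell cycle genes by RNA sequencing, after CNT-T. In these libraries fewer cycling cells, less RNA per cycling cell and a different mix of macrophage types cannot be told apart.

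A cell enters division when D-type cyclins bind CDK4 or CDK6 and phosphorylate RB and its relatives, which releases E2F factors to switch on the genes of DNA synthesis. Cyclin E with CDK2, cyclin A and at last cyclin B with CDK1 then drive S phase and mitosis, while the WEE1 and PKMYT1 kinases restrain CDK1 and the CDC25 phosphatases release it. Inhibitors of the INK4 family (the Cdkn2 genes) block CDK4 and CDK6, those of the CIP/KIP family (Cdkn1a, Cdkn1b and Cdkn1c) bind cyclin-CDK complexes, and Cdkn1a is induced when DNA is damaged. Mature tissue macrophages are known to be able to divide in place, and D-type cyclins are known targets of the M-CSF signal in these cells.

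The promoters of a few members are printed because genes of G2 and mitosis are known to share short promoter elements. The cell cycle genes homology region (CHR; TTTGAA or TTCGAA) is bound by the MuvB complex through its LIN54 subunit, CCAAT by NF-Y, and the E2F element (here TTTCCCGC, TTTCGCGC, TTTGCCGC or TTTGGCGC) by E2F factors. Each was searched on both strands in the 250 bases before and 50 bases after the RefSeq start, and no sites of different elements overlapped in the members. Of the 48 members, 34 were matched to a promoter in the RefSeq table (assembly GRCr8, which is not the assembly of the counts). A CHR was found in 8 of the 10 G2/M promoters, against 14.7% of the promoters of 8872 tested genes and 21.0% of those of all 27457 genes. It was also found in 3 of 7 promoters of the RB and E2F families, in 2 of 6 of the inhibitors, in 1 of 8 of the G1 regulators and in those of Mdm2 and Ccng1, so that 47.1% of all matched members held one. CCAAT stood in 7 of the 10 (39.7% of tested genes). It also stood in 4 of 8 promoters of the G1 regulators, 2 of 7 of the RB and E2F families and 2 of 6 of the inhibitors, and in 50.0% of all matched members. An E2F element was found in 3 of 7 promoters of the RB and E2F families (Rbl1, E2f3 and Rb1), against 4.46% of tested genes. It was found in 1 of 8 of the G1 regulators, 1 of 10 of the G2/M regulators and 0 of 6 of the inhibitors, and in 14.7% of all matched members. The 150 bases just before the start are given 5′ to 3′ on the strand of the gene, with the elements of either strand in capitals, for 3 G2/M regulators, for Rbl1 with its E2F element, and for Cdkn1a, in which none of the 3 elements was found.
Cdk1 (GRCr8, chr20:19265143-19265292, plus strand): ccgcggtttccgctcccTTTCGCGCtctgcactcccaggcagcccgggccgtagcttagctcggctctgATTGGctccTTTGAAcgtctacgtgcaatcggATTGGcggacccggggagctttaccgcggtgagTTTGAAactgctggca
Cks2 (GRCr8, chr17:13727520-13727669, minus strand): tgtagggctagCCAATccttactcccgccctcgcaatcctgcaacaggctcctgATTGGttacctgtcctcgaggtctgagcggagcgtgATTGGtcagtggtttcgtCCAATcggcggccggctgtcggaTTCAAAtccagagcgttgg
Cdc25b (GRCr8, chr3:138860023-138860172, plus strand): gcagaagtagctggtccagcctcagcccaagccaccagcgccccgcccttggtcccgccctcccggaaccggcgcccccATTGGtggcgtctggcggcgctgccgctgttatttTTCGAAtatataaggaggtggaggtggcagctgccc
Rbl1 (GRCr8, chr3:166289377-166289526, minus strand): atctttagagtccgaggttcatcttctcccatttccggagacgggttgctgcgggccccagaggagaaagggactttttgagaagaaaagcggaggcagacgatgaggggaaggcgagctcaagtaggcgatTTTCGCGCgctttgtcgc
Cdkn1a (GRCr8, chr20:7150782-7150931, plus strand): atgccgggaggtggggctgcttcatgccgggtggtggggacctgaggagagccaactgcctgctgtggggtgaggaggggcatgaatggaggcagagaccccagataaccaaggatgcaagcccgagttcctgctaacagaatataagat

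The Cdk1 stretch holds 1 E2F element (TTTCGCGC, first base 133 before the start), 2 CHR elements and 2 of CCAAT on the other strand (ATTGG). The Cks2 stretch holds 4 CCAAT elements and a CHR whose first base lies 19 before the start, and in Cdc25b the CHR lies 36 before it. A match of letters is a description of these windows and not a measured site.

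The libraries held between 27195157 and 33732981 counts. Levels are given as CPM, counts scaled to a library of 1000000 after TMM normalization, and 3 counts correspond to between 0.0887 and 0.109 CPM. All 10 macrophage markers examined were present, and their summed level was lower after CNT-7 (17200 to 23800 CPM) than after CNT-T (25600 to 36500 CPM), with Lyz2 as the most abundant (two-sided p = 0.0286 by exact permutation, the smallest value possible with 4 rats against 4, and 0.2 when adjusted over 7 marker lists). The sum without Lyz2 did not overlap either (3620 to 4960 against 5060 to 6360 CPM). Of the 10 markers, 5 were lower after CNT-7 and 2, Cd14 and Spi1, higher by the edgeR test used below. Cd163 (180 ± 60.8 CPM after CNT-7 against 582 ± 94.0 CPM after CNT-T, SD) and Adgre1 (271 ± 40.7 against 592 ± 56.6 CPM) fell most. The part of these markers in the results below was not tested. Markers of other cells were low: 9 neutrophil markers summed to 33.9 to 63.0 CPM in CNT-7 rats and 26.3 to 68.5 CPM in CNT-T rats, with Csf3r as the most abundant and Mpo at 0 in every rat, and 6 T and NK cell markers to 4.27 to 11.9 and 4.73 to 5.44 CPM. The other 4 lists summed to under 10 CPM in every rat, namely 5 eosinophil markers (at most 9.33 CPM, in CNT-7 rat 3, with Epx and Prg3 at 0), 5 mast cell markers (at most 1.38), 4 B cell markers (at most 2.78, in CNT-7 rat 5) and 5 mesothelial markers (at most 0.302, with Upk3b and Wt1 at 0). For these 6 lists the exact permutation p, two-sided, was between 0.286 and 0.914. The most abundant T and NK cell marker was Lck. Without Lck that sum was 2.06 to 7.34 CPM in CNT-7 rats, highest in rat 5, and 1.3 to 2.44 CPM in CNT-T rats (two-sided p = 0.0857 by exact permutation). Only 5 of the neutrophil markers could be tested by edgeR, and their directions were mixed. On the log2 scale, CNT-7 relative to CNT-T, S100a9 (1.23), Cxcr2 (1.26) and Csf3r (0.39) were positive and Elane (-0.68) negative, none of them called. S100a8 was lower after CNT-7 without overlap, in the same direction as most members (2.24 ± 0.986 against 6.17 ± 2.16 CPM, SD, edgeR adjusted p = 0.016). The part of S100a8 in the results was also not tested.

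Of the 48 members, 47 had enough counts to be tested, and 36 passed an adjusted p-value of 0.10 (edgeR's quasi-likelihood test, Benjamini-Hochberg adjustment over all genes). Significantly lower after CNT-7 were 30 members and significantly higher 6. Over all 12124 genes tested, 27.9% passed, with 14.0% lower and 13.9% higher. Thus 63.8% of the tested members were lower and 12.8% higher. No value of one group lay within the range of the other in 34 of the 47 members, against 24.9% of all genes tested. On the log2 scale, with CNT-7 relative to CNT-T, the median difference was -0.72 over the members and 0.0083 over all genes tested. All 14 G2/M regulators were lower, G1 regulators were lower in part, the RB and E2F families were divided, and the CDK inhibitors moved in both directions.

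**Figure D1:**
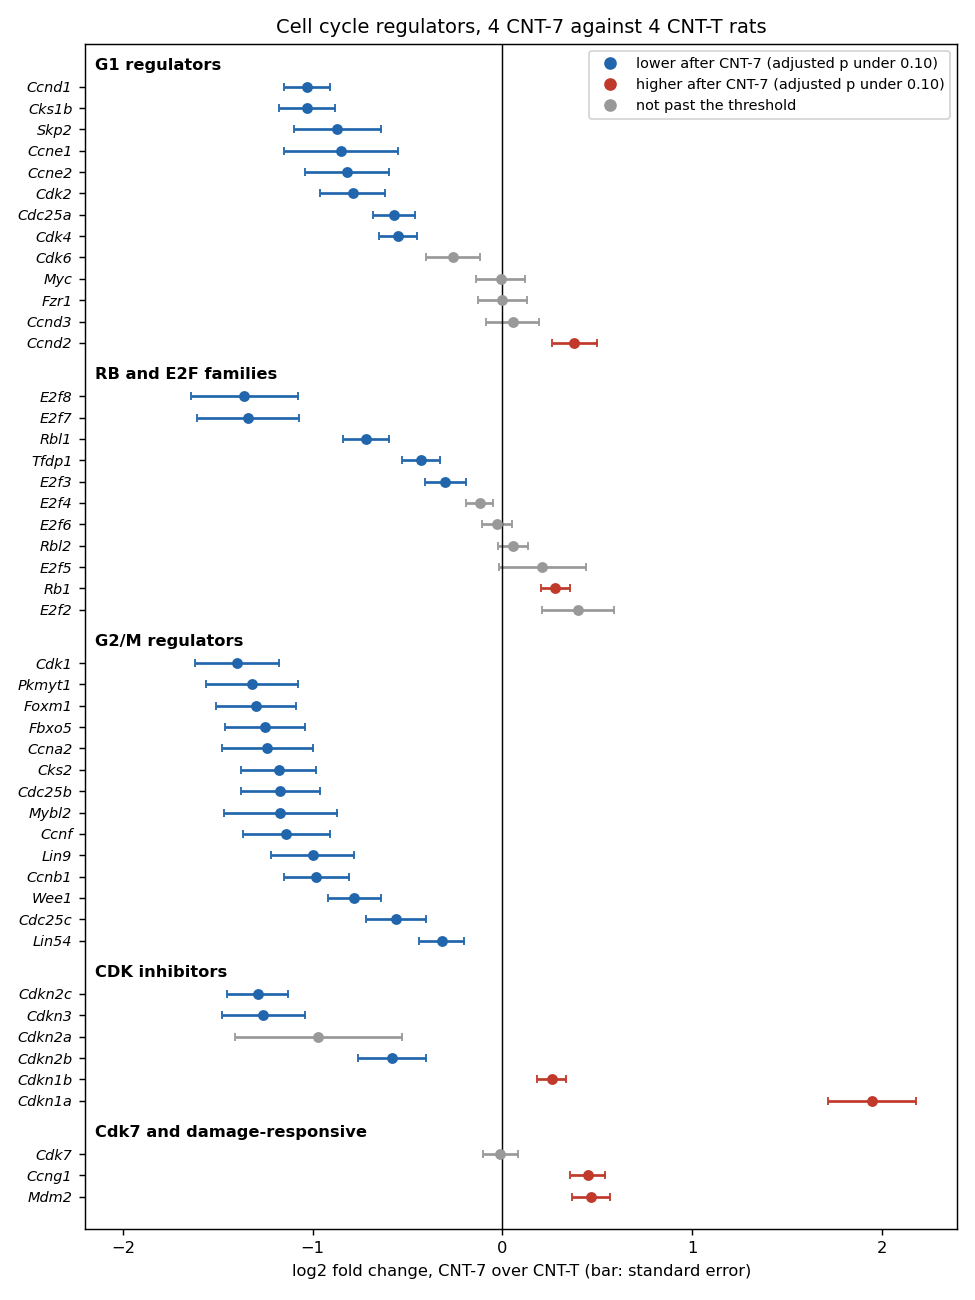
Log2 fold change, CNT-7 relative to CNT-T (horizontal axis), for each of the 47 tested members, grouped by role; points are edgeR estimates from 4 rats per particle, bars are standard errors, blue is lower and red higher after CNT-7 at an adjusted p-value under 0.10, and grey is not past it. The whole G2/M block lies left of 0, from -1.40 for Cdk1 to -0.32 for Lin54, whereas Cdkn1a lies farthest to the right at 1.95.

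G1 regulators. Of 13 genes tested, 8 were lower and 1 was higher after CNT-7, with a median log2 fold change of -0.57. Ccnd1 (ENSRNOG00000020918), the gene of cyclin D1, had 291, 383, 334 and 402 CPM in CNT-7 rats 3, 5, 10 and 11 and 796, 774, 621 and 682 CPM in CNT-T rats 1, 2, 12 and 13. The groups did not overlap, and the level was 2.04-fold higher after CNT-T (log2 fold change -1.03 ± 0.12 SE, edgeR adjusted p = 0.0007). Ccnd2 (ENSRNOG00000057710) went the opposite way, with 40.0, 48.9, 43.7 and 45.1 CPM in the CNT-7 rats and 39.3, 32.5, 38 and 26.6 CPM in the CNT-T rats, in the same order of rats as used throughout. The lowest CNT-7 rat lay just above the highest CNT-T rat, and the difference was 1.30-fold (log2 fold change 0.38 ± 0.12 SE, edgeR adjusted p = 0.056), with an adjusted p of 0.146 without CNT-7 rat 5 and 0.131 without CNT-T rat 2. Ccnd3, the third D-type cyclin, had 86.7 ± 12.9 CPM in the CNT-7 group against 83.5 ± 13.9 CPM in the CNT-T group (SD, n = 4, as for all such pairs), and the 95% interval of its log2 fold change ran from -0.25 to 0.36. Thus of the 3 D-type cyclin genes 1 was lower, 1 was slightly higher and 1 did not pass the test, with Ccnd1 differing most.

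Cks1b, whose product binds CDKs and is a cofactor of SKP2, had 13.4, 10.4, 9.64 and 15.2 CPM in the CNT-7 rats and 23.1, 27.2, 26.2 and 22.5 CPM in the CNT-T rats. Every CNT-7 rat was below every CNT-T rat (log2 fold change -1.03 ± 0.15 SE, edgeR adjusted p = 0.0017). Skp2 encodes the F-box protein that marks p27 for destruction, and had 5.62, 3.92, 3.72 and 7.71 CPM in the CNT-7 group against 7.60, 10.3, 10.3 and 10.1 CPM in the CNT-T group. Its groups overlapped, since CNT-7 rat 11 exceeded CNT-T rat 1 (log2 fold change -0.87 ± 0.23 SE, edgeR adjusted p = 0.027). Ccne1, the gene of cyclin E1, had 6.96, 3.42, 3.14 and 8.18 CPM in the CNT-7 group against 8.18, 9.93, 9.69 and 11.3 CPM in the CNT-T group. CNT-7 rat 11 reached 8.18 CPM and CNT-T rat 1 was at the same level to 3 digits (log2 fold change -0.85 ± 0.3 SE, edgeR adjusted p = 0.073). The call of Ccne1 was lost without any 1 of 5 rats (CNT-7 rats 5 and 10 and CNT-T rats 2, 12 and 13), with adjusted p-values between 0.128 and 0.164. Ccne2 (-0.82), Cdk2 (-0.79), Cdc25a (-0.57) and Cdk4 (-0.55) were lower on the log2 scale by less than 2-fold, with edgeR adjusted p-values between 0.0057 and 0.028. Cdc25a encodes the phosphatase that activates CDK2, and CDK4 is the partner of the D-type cyclins.

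The other G1 members gave no call. Cdk6, the second partner of the D-type cyclins, had 25.2 ± 2.26 CPM in the CNT-7 group against 30.2 ± 5.83 CPM in the CNT-T group (log2 fold change -0.26, 95% interval -0.57 to 0.044). Without CNT-T rat 1 its edgeR adjusted p was 0.063. Myc, a transcription factor induced by growth signals, had 101 ± 18.8 CPM in the CNT-7 group against 102 ± 9.81 CPM in the CNT-T group, with an interval from -0.30 to 0.28. Fzr1, which encodes the CDH1 activator of the anaphase-promoting complex in G1, had 23.5 CPM on average in both groups, with an interval from -0.29 to 0.29.

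**Figure D2:**
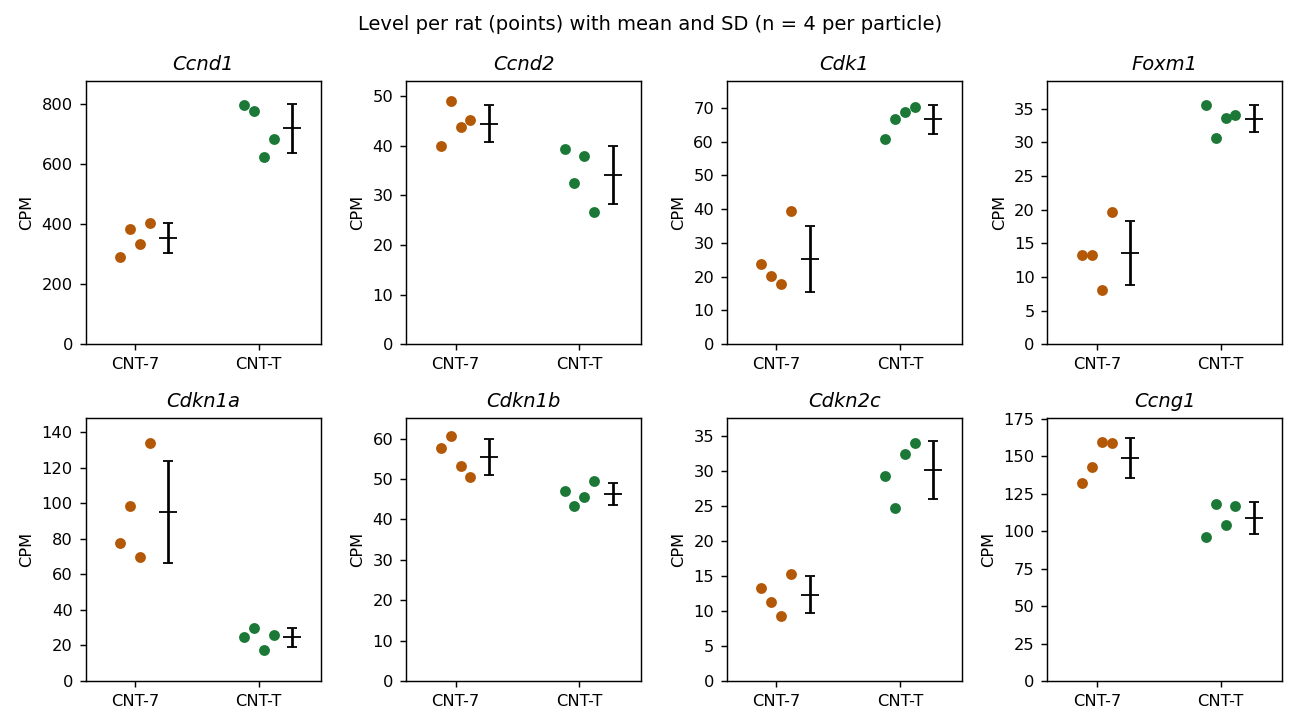
CPM (vertical axis, from 0) of 8 members in each of the 4 CNT-7 and 4 CNT-T rats (points), with the mean and SD beside them. Ccnd1, Cdk1, Foxm1 and Cdkn2c are lower in every CNT-7 rat than in any CNT-T rat, Cdkn1a and Ccng1 are higher in every CNT-7 rat, and Ccnd2 and Cdkn1b are higher by a small margin.

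RB and E2F families. Of 11 genes tested, 5 were lower and 1 was higher after CNT-7. The largest differences were those of E2f7 and E2f8, the atypical E2Fs, which bind DNA without a DP partner and repress E2F target genes. E2f8 (ENSRNOG00000022537) had 8.41, 6.30, 4.26 and 12.9 CPM in the CNT-7 rats and 19.1, 21.1, 19.3 and 22.3 CPM in the CNT-T rats (log2 fold change -1.36 ± 0.28 SE, edgeR adjusted p = 0.0078). E2f7 had 3.68, 2.21, 1.91 and 4.85 CPM in the CNT-7 group against 8.90, 6.98, 7.42 and 8.70 CPM in the CNT-T group (log2 fold change -1.34 ± 0.27 SE, edgeR adjusted p = 0.0082). In both genes the groups stood apart, and CNT-7 rat 11 was the nearest to the CNT-T rats. Rbl1, the gene of p107, had 51.7, 47.3, 42.5 and 59.0 CPM in the CNT-7 group against 68.3, 89.9, 78.9 and 93.5 CPM in the CNT-T group (log2 fold change -0.72 ± 0.12 SE, edgeR adjusted p = 0.0039). Tfdp1 encodes DP1, the partner that typical E2Fs need, and had 86.1, 71.9, 73.2 and 91.9 CPM in the CNT-7 group against 98.1, 123, 104 and 108 CPM in the CNT-T group (log2 fold change -0.43 ± 0.1 SE, edgeR adjusted p = 0.017). Here too no CNT-7 rat reached the lowest CNT-T rat.

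Rb1, the gene of the retinoblastoma protein itself, was the only member of these families with a significant rise. It had 60.4, 55.5, 61.6 and 56.3 CPM in the CNT-7 rats and 44.0, 46.3, 48.7 and 53 CPM in the CNT-T rats, a difference of 1.22-fold without overlap (log2 fold change 0.28 ± 0.075 SE, edgeR adjusted p = 0.025). E2f3, an activating E2F, was slightly lower at 7.03 ± 0.595 CPM against 8.63 ± 0.223 CPM (log2 fold change -0.30, edgeR adjusted p = 0.081), and this call was lost without any 1 rat but CNT-7 rat 11, with adjusted p-values between 0.11 and 0.189, and also with no filter on low counts (0.117). E2f2, also an activating E2F, had 20.8 ± 6.05 CPM in the CNT-7 group against 15.7 ± 2.27 CPM in the CNT-T group (log2 fold change 0.40, 95% interval -0.024 to 0.83), and passed only without CNT-7 rat 5 (edgeR adjusted p = 0.0938). CNT-7 rat 10, which was lowest in most proliferation genes, had the highest E2f2 level of all rats, 29.5 CPM. The repressive E2f4 (-0.12) and E2f6 (-0.03), E2f5 (0.21) and the p130 gene Rbl2 (0.055) had log2 fold changes that did not pass the test. E2f5 had at most 3.65 CPM in any rat, with an interval from -0.31 to 0.73.

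G2/M regulators. All 14 genes were significantly lower after CNT-7, with a median log2 fold change of -1.17 and edgeR adjusted p-values between 0.0024 and 0.082. In 13 of them the groups did not overlap, though in Cdc25c the nearest rats were equal to 3 digits. Cdk1 (ENSRNOG00000000632), the mitotic kinase, had 23.7, 20.1, 17.9 and 39.5 CPM in the CNT-7 rats and 60.7, 66.8, 68.8 and 70.2 CPM in the CNT-T rats. It was 2.64-fold higher after CNT-T (log2 fold change -1.40 ± 0.22 SE, edgeR adjusted p = 0.0024). Foxm1 encodes the forkhead factor that drives the late wave of mitotic genes. Its level was 13.3, 13.2, 8.09 and 19.7 CPM in the CNT-7 rats and 35.5, 30.7, 33.6 and 34.1 CPM in the CNT-T rats (log2 fold change -1.30 ± 0.21 SE, edgeR adjusted p = 0.0031). Pkmyt1, the kinase that holds CDK1 inactive at the membrane, had 9.46, 7.47, 4.59 and 12.2 CPM in the CNT-7 group against 21.4, 22.2, 21.4 and 19.3 CPM in the CNT-T group (log2 fold change -1.32 ± 0.24 SE, edgeR adjusted p = 0.0048). Fbxo5 encodes EMI1, which inhibits the anaphase-promoting complex, and had 8.80, 5.46, 6.75 and 11.7 CPM in the CNT-7 group against 17.4, 17.8, 20.2 and 22.4 CPM in the CNT-T group (log2 fold change -1.25 ± 0.21 SE, edgeR adjusted p = 0.0036). In these 4 genes the highest CNT-7 rat was always rat 11, and it stayed below the lowest CNT-T rat.

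The genes that restrain CDK1 fell together with those that activate it. On the side of activation, Ccna2 (log2 fold change -1.24), Ccnb1 (-0.98), the phosphatase genes Cdc25b (-1.17) and Cdc25c (-0.56) and the CDK-binding Cks2 (-1.18) were lower. On the side of restraint were Pkmyt1, described above, and Wee1 (-0.78). Ccnf, the gene of cyclin F, a ubiquitin ligase subunit, had a log2 fold change of -1.14. Of the transcription factors, Mybl2 (B-MYB) had 20.2, 13.5, 9.17 and 29.5 CPM in the CNT-7 rats and 35.1, 47.8, 39.8 and 39.5 CPM in the CNT-T rats (log2 fold change -1.17 ± 0.3 SE, edgeR adjusted p = 0.022), the widest spread of the 14 genes by standard error. Lin9 and Lin54 encode subunits of the MuvB core, which FOXM1 and B-MYB use to reach CHR promoters. Lin9 was 2.00-fold higher after CNT-T (6.30 ± 1.89 CPM against 12.6 ± 1.69 CPM), whereas Lin54 differed least of the 14 (38.4 ± 5.17 against 48.0 ± 6.0 CPM, log2 fold change -0.32, edgeR adjusted p = 0.082). Lin54 was the one G2/M gene whose groups overlapped, and its call was lost without any 1 of 6 rats (CNT-7 rats 3, 5 and 10 and CNT-T rats 2, 12 and 13), with adjusted p-values between 0.121 and 0.181.

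The CNT-7 rats kept much the same order among themselves from gene to gene. In 13 of the 14 G2/M genes rat 11 was the highest CNT-7 rat, and in 11 rat 10 was the lowest. The median over the 14 genes of the level relative to the CNT-T mean was 64.3% in rat 11, 47.7% in rat 3, 38.4% in rat 5 and 29.7% in rat 10. In the CNT-T rats this median was between 94.7% and 102.0%, and the highest rat changed from gene to gene. Among all 30 members called lower, rat 11 was the highest CNT-7 rat in 27 and rat 10 the lowest in 20. The members share these libraries, so the order describes 4 rats and was not tested.

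**Figure D3:**
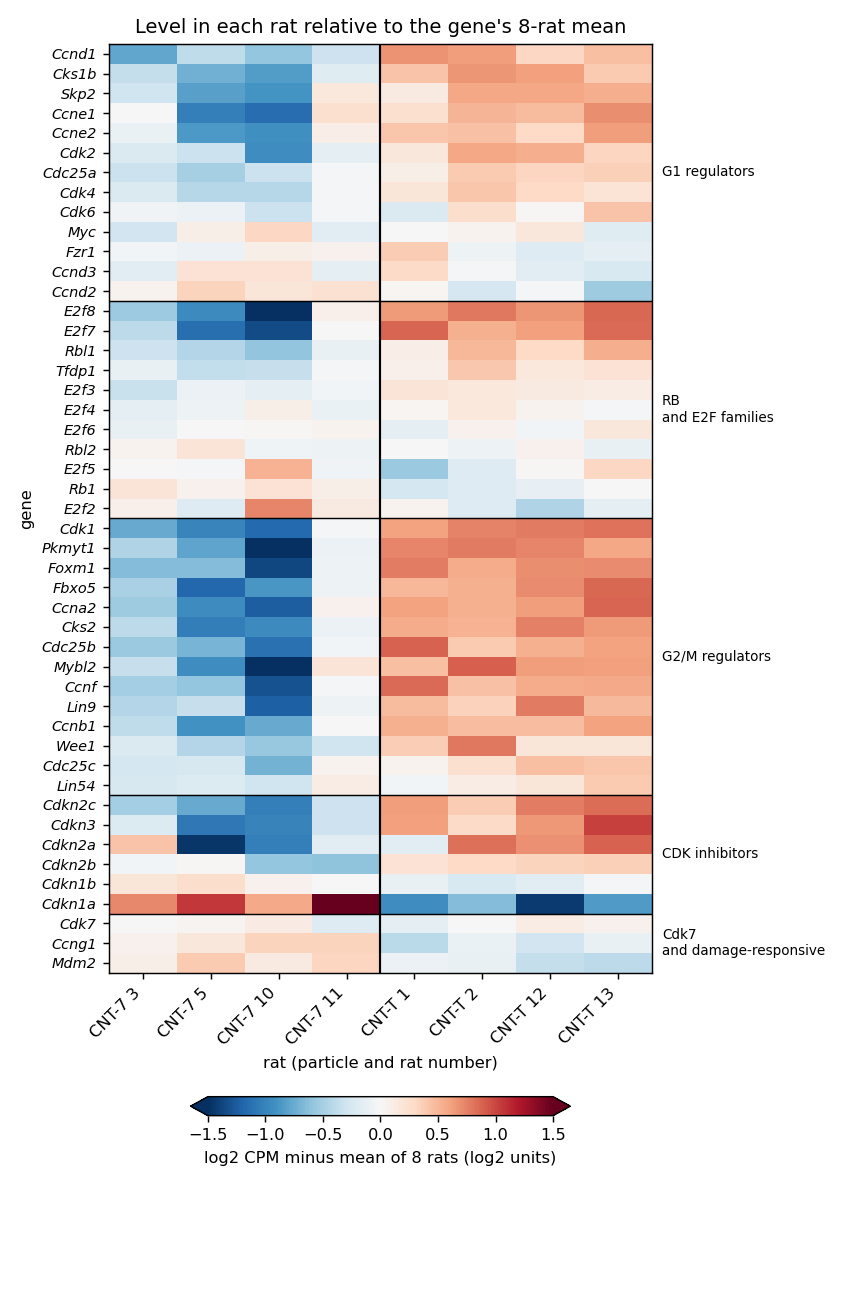
Each row is 1 of the 47 tested members and each column 1 rat, and the colour gives log2 CPM minus the mean of that gene over the 8 rats (colour scale cut at -1.5 and 1.5). The G2/M block is red in the CNT-T columns, except for a pale Lin54 and Cdc25c in rat 1, and is mostly bluest in CNT-7 rat 10, rat 11 is its palest CNT-7 column, and the Cdkn1a row has the reverse colours. The Cdkn2a row rests on at most 22 counts per rat.

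CDK inhibitors. Among the 7 genes present, 6 could be tested, of which 2 were higher and 3 lower after CNT-7. Cdkn1a (ENSRNOG00000000521), which encodes p21, had 77.6, 98.3, 70 and 134 CPM in the CNT-7 rats and 24.6, 30.0, 17.4 and 26.0 CPM in the CNT-T rats. The lowest CNT-7 rat was more than 2 times the highest CNT-T rat, and the mean rose 3.88-fold (log2 fold change 1.95 ± 0.23 SE, edgeR adjusted p = 0.00063), the largest difference of all members in either direction. Within the CNT-7 group, rat 11 had the highest Cdkn1a and rat 10 the lowest, the same rats that had the highest and the lowest G2/M levels. Cdkn1b, the gene of p27, had 57.6, 60.6, 53.1 and 50.5 CPM in the CNT-7 group against 47.0, 43.3, 45.5 and 49.6 CPM in the CNT-T group. This rise of 1.2-fold had no overlap (log2 fold change 0.26 ± 0.078 SE, edgeR adjusted p = 0.042), but the adjusted p lay between 0.105 and 0.122 without CNT-7 rat 3 or 5 or CNT-T rat 2 or 12. Cdkn1c, the gene of p57, had 9, 9, 2 and 8 counts in the CNT-7 rats and 17, 13, 16 and 9 counts in the CNT-T rats. It was below the filter and was not tested.

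Of the INK4 genes, Cdkn2c and Cdkn2b were lower after CNT-7. Cdkn2c (ENSRNOG00000008956), which encodes p18, had 13.3, 11.2, 9.32 and 15.3 CPM in the CNT-7 rats and 29.2, 24.7, 32.4 and 34.0 CPM in the CNT-T rats. The groups were clearly apart, with a 2.45-fold higher level after CNT-T (log2 fold change -1.29 ± 0.16 SE, edgeR adjusted p = 0.00084). Cdkn2b, which encodes p15, had 4.20, 4.39, 2.89 and 2.86 CPM in the CNT-7 group against 5.05, 5.35, 5.47 and 5.55 CPM in the CNT-T group (log2 fold change -0.58 ± 0.18 SE, edgeR adjusted p = 0.046). Its adjusted p was 0.103 without CNT-7 rat 10 and 0.101 without CNT-T rat 12. Cdkn2a, whose locus encodes p16 and ARF, had only 15, 4, 5 and 9 counts in the CNT-7 rats and 10, 22, 18 and 19 counts in the CNT-T rats. At this depth the difference could not be resolved (log2 fold change -0.97, 95% interval -1.96 to 0.013, edgeR adjusted p = 0.16), although it passed without CNT-7 rat 3 (0.0757), and counts per gene do not separate the transcripts of p16 and ARF. Cdkn3 is named as an inhibitor but encodes a phosphatase that removes the activating phosphate of CDKs and is known to be expressed late in the cycle. It had 19.9, 10.9, 11.4 and 18.5 CPM in the CNT-7 group against 35.1, 28.0, 35.8 and 46.6 CPM in the CNT-T group, without overlap (log2 fold change -1.26 ± 0.22 SE, edgeR adjusted p = 0.0043). Without Cdkn3, 2 of 5 tested inhibitors were higher and 2 lower.

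Cdk7 and the damage-responsive members. Mdm2, which encodes a ubiquitin ligase, and Ccng1, which encodes cyclin G1, are known to be induced by DNA damage, as is Cdkn1a. Mdm2 had 52.2, 64.2, 53.8 and 61.4 CPM in the CNT-7 rats and 46.2, 45.5, 38.4 and 37.4 CPM in the CNT-T rats (log2 fold change 0.47 ± 0.1 SE, edgeR adjusted p = 0.0099). Ccng1 had 132, 143, 160 and 159 CPM in the CNT-7 group against 95.9, 118, 104 and 117 CPM in the CNT-T group (log2 fold change 0.45 ± 0.094 SE, edgeR adjusted p = 0.009). Both rose without overlap between the groups, by 1.38-fold and 1.37-fold. Cdk7, the kinase that activates other CDKs and also acts in transcription, had 24.0 ± 2.15 CPM in the CNT-7 group against 24.2 ± 1.77 CPM in the CNT-T group, and its log2 fold change was within -0.21 to 0.19 (95% interval).

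Other genes of the pathway. Of 24 replication genes under E2F control, all 24 tested were lower after CNT-7, with a median log2 fold change of -1.17, from -1.38 for Tk1 to -0.75 for Tyms, both enzymes of nucleotide synthesis. Of 23 mitotic genes tested, targets of FOXM1 and B-MYB, all 23 were lower, with a median of -1.21, led by Top2a (topoisomerase II alpha; 68.1 ± 26.0 CPM against 218 ± 16.3 CPM, log2 fold change -1.68) and Mki67 (-1.64). Beside these stood the G2/M members with the same median as the replication genes, -1.17, and the G1 members with -0.57. An E2F element was found in 10 of 19 replication gene promoters (52.6%), and a CHR in 14 of 20 mitotic gene promoters and in 3 of the 19 replication gene promoters. CCAAT was found in both lists, in 14 of the 19 replication and 17 of the 20 mitotic gene promoters. These lists and the other lists below were written with earlier results of these rats known and are no independent evidence of direction.

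**Figure D4:**
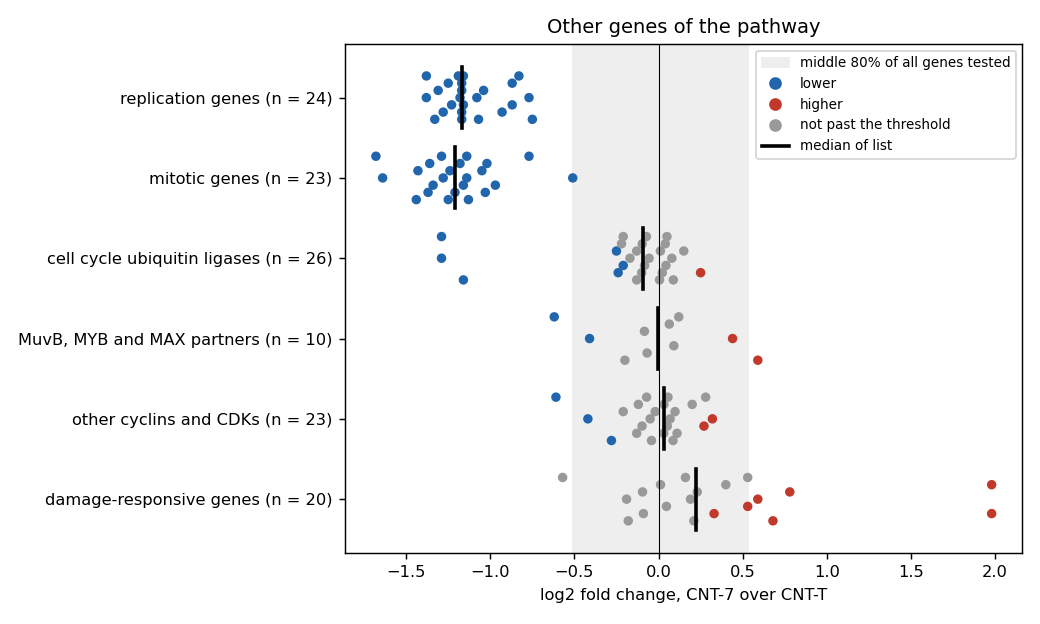
Log2 fold change, CNT-7 relative to CNT-T (horizontal axis), of the tested genes in 6 lists outside the members; each point is 1 gene, blue is lower and red higher at an adjusted p-value under 0.10, black bars are list medians and the grey band spans the middle 80% of all genes tested (-0.51 to 0.53). Replication and mitotic genes lie left of the band with medians of -1.17 and -1.21, except for 1 mitotic gene at its edge. The damage-responsive genes have a median of 0.22, and the medians of the remaining lists lie between -0.09 and 0.03.

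Of 23 other tested cyclins, CDKs and their partners, 3 were lower (13%) and 2 higher (8.7%), beside 14.0% and 13.9% of all genes, with a median of 0.03. Lower were Cdk14 (-0.61), Cdk19 (-0.42) and Cdk17 (-0.28), and higher were Ccng2 (0.32, edgeR adjusted p = 0.082) and Ccnc (0.27, adjusted p = 0.084), the cyclin of the mediator kinase. Neither of these rises passed without CNT-7 rat 3 or 5, without CNT-T rat 1, 2 or 12, or without the filter on low counts. The transcription kinases Cdk9, Cdk12 and Cdk13 had log2 fold changes between 0.031 and 0.056 and did not pass. Of 10 tested partners of MuvB, MYB and MAX, 2 were lower (20%) and 2 higher (20%), beside 14.0% and 13.9% of all genes, and 6 did not pass. Lower were Tfdp2 (-0.62), a relative of Tfdp1, and Rbbp4 (-0.41), and higher were Mybl1 (0.59) and Mxi1 (0.44). Mybl1 encodes A-MYB, a relative of B-MYB, and MXI1 competes with MYC for MAX. Of 26 cell cycle ubiquitin ligase genes, 6 were lower (23.1%) and 1 higher (Btrc, 0.25), beside 14.0% and 13.9% of all genes. The rise of Btrc did not pass without CNT-7 rat 5 or CNT-T rat 1 or 2, and only 4 genes were lower without CNT-7 rat 3 or 5 or CNT-T rat 2 or 12. Their 3 largest falls were those of Dtl (-1.29), Ube2c (-1.29) and Cdc20 (-1.16), the latter pair being partners of the anaphase-promoting complex in mitosis that also stand in the mitotic list. The core subunits of that complex differed little, with Anapc1 (-0.25), Cdc26 (-0.24) and Anapc11 (-0.21) the only ones to pass.

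Of 20 further tested genes of the DNA damage response, 7 (35.0%) were higher after CNT-7, against 13.9% of all genes, and 0 were lower by edgeR, with 1 (Ddb2) lower at an unadjusted p under 0.05 and 1 by DESeq2. Tp53inp1 rose from 2.03 ± 0.378 CPM to 7.97 ± 1.44 CPM (log2 fold change 1.98, edgeR adjusted p = 0.00033) and Phlda3, an inhibitor of AKT, from 2.00 ± 0.689 CPM to 7.94 ± 2.46 CPM (1.98, adjusted p = 0.0019). Both were close to Cdkn1a in fold. Aen (0.78), Btg2 (0.68), Zmat3 (0.59), Plk3 (0.53) and the apoptosis gene Bax (0.33) rose less. The 13 genes that did not pass had log2 fold changes from -0.57 (Ddb2) to 0.53 (Gadd45a), and those of Sesn1, Sesn2, Mdm4, Ppm1d and Tigar lay between -0.18 and 0.047. This list too was written with earlier results of these rats known.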

How the data were processed

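Macrophages sorted from the peritoneal cavity of 8 rats, 4 given CNT-7 and 4 given CNT-T, had been sequenced (stranded mRNA libraries), and samples were grouped by their labels. Per the study's methods, reads were quantified by the authors with Salmon against the Ensembl cDNA of Rnor_6.0 in the ARMOR workflow and imported with tximeta. The deposited values are unnormalized estimated counts, already whole numbers. Salmon assigns reads shared by similar transcripts by estimation, so near-identical genes are uncertain. Its version is not given in the sources used here.

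All genes were fitted together in edgeR 4.0.16 (R 4.3.3; TMM normalization, filterByExpr at its defaults, quasi-likelihood test). P-values of 12124 genes were adjusted by Benjamini-Hochberg, and the study's threshold of 0.10 was used. The standard error (SE) was taken as the fold change on the log2 scale over the root of the F statistic. Depth was 27195157 to 33732981 counts per rat, and the floor of 3 counts covers counting error only. The fit was tested on simulated data, in which 9.42% of the calls by edgeR and 25.5% of those by DESeq2 were false.

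Members and lists were chosen with earlier results of these data known. Values by rat are given for each inhibitor, for the 4 called members of each role with the largest change, and for members called against their role. From each list come the 2 largest called rises and falls. Values of 2 genes in these lists are not reported here. Other genes were named after their values were seen. Alternatives were DESeq2 1.42.0, upper-quartile and RLE normalization, other filters, an adjusted p under 0.05, a 2-fold limit, the range of rat numbers as a term, and leaving out each rat.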

Additional observations from a re-analysis of the deposited data

Results flagged for a closer look

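In 2 of 94 sets of 4 rats (1 gene in 1 group), the gap between an extreme rat and its neighbour took up more of the range than Dixon's critical value allows. Chance alone would give about 4.7 such sets. Skp2 was low in CNT-T rat 1 (7.60 CPM, the remaining CNT-T rats at 10.1 to 10.3 CPM, Dixon ratio 0.94). E2f5 was high in CNT-7 rat 10 (3.65 CPM, the remaining CNT-7 rats at 2.46 to 2.53 CPM, Dixon ratio 0.943).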

How the results depend on the processing

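No paired analysis was possible because the groups share no rat number. Of the 47 tested members, 38 kept the same call in all 14 refits (DESeq2, other normalizations and filters, the range of rat numbers as a term, each rat left out), and no called value reversed, while values near 0 that were not called, such as Ccnd3 and Myc, changed sign. With at least 10 counts required in every rat, Cdkn2a had no value. DESeq2, upper-quartile, RLE and the rat number term changed 0 calls, though DESeq2 made more false calls than edgeR in the simulated data. Requiring a 2-fold change left 1 member higher and 15 lower. By role these were 0 higher and 2 lower in G1, 0 and 2 in the RB and E2F families, 9 lower in G2/M, and 1 higher and 2 lower among inhibitors, with 0 for Mdm2 and Ccng1. Of the lists it left 0 and 0 for other cyclins and CDKs, 0 and 0 for MuvB, MYB and MAX partners, 2 higher for damage-responsive genes, and 0 higher and 3 lower for ubiquitin ligases. An adjusted p under 0.05 left 0 higher in G1, in other cyclins and CDKs and in ubiquitin ligases. Other cyclins and CDKs had 0 higher without the filter and 1 with the rat number term, and DESeq2 called 1 damage-responsive gene lower. Leaving out each rat in turn gave 4 to 6 members higher and 26 to 30 lower, with 0 to 1 higher in G1, 1 to 2 higher in the RB and E2F families, 13 to 14 lower in G2/M, 1 to 2 higher among inhibitors, 0 to 3 higher among other cyclins and CDKs, 0 to 2 lower among damage-responsive genes and 0 to 1 higher and 4 to 7 lower among ubiquitin ligases. The causes were not tested. Genes under about 1 CPM, such as Cdkn2a and Cdkn1c, were limited by depth.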
